A study of Mus musculus with 8 samples.

Results

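The genes described here encode 8 G-protein-coupled receptors through which hormones, nutrients and nerves act on the pancreatic islet. They are the incretin and glucagon receptors Glp1r, Gipr and Gcgr, the fatty-acid receptor Ffar1, the adrenergic receptor Adra2a, the muscarinic receptor Chrm3, the somatostatin receptor Sstr3 and the galanin receptor Galr1. The genes were picked by name, and all 8 were found among the 16333 genes of the deposited tables. RNA was sequenced from islets of 2 NFATc2βKO mice (KO) and 2 wild-type mice (WT), all labelled as strain Agouti/C57BL6. In KO mice the transcription factor NFATc2 had been removed with tamoxifen in adulthood, in cells that express insulin, and WT mice had received tamoxifen with no gene loss following. Islets of each mouse were split, after a night in 5.5 mM glucose, into a culture kept for 2 h in 11 mM glucose with IFNγ (50 ng/mL), TNFα (10 ng/mL) and IL1β (5 ng/mL) and a culture left untreated for 2 h. The 4 groups were therefore KO cytokine, KO untreated, WT cytokine and WT untreated, with 2 libraries each. The labels count the 11 mM glucose as part of the treatment and do not give the glucose of the untreated cultures over those 2 h, so effects of cytokines and of glucose cannot be told apart.

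In beta cells the receptors for GLP-1, GIP and glucagon couple mainly to Gs, which raises cAMP and strengthens insulin release when glucose is high. FFAR1 binds long-chain fatty acids and, like the M3 receptor that answers acetylcholine from vagal nerves, couples mainly to Gq and phospholipase C. The α2A-adrenergic receptor, SSTR3 and GALR1 couple to Gi/o proteins, lower cAMP and restrain insulin release in response to adrenaline and noradrenaline, somatostatin from delta cells, and galanin. Islets also hold alpha, delta, vascular, immune and connective-tissue cells, while NFATc2 was targeted in insulin-expressing cells only. In such bulk RNA fewer cells of a type and less RNA per cell cannot be told apart.

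The sequences below are promoter windows of the receptors that were lower in the cytokine culture of all 4 mice and have an entry in the RefSeq promoter table, each running from 250 bases before to 50 bases after a start site on GRCm38.p6, 5′ to 3′ on the gene's own strand. They are Sstr3 (chr15:78544296-78544595, minus strand), Gcgr (chr11:120530477-120530776, plus strand), Ffar1 (chr7:30861421-30861720, minus strand) and Glp1r (chr17:30901617-30901916, plus strand). Capitals mark GGAAA, the core bound by NFAT proteins, and TGACG, a part of the cAMP response element, each on either strand, so that they can also read TTTCC or CGTCA.
Sstr3: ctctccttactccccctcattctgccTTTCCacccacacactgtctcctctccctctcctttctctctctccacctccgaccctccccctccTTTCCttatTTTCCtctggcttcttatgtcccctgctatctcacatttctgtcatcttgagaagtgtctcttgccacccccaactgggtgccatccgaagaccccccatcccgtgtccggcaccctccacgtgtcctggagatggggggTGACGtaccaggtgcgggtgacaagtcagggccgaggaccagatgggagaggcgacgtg
Gcgr: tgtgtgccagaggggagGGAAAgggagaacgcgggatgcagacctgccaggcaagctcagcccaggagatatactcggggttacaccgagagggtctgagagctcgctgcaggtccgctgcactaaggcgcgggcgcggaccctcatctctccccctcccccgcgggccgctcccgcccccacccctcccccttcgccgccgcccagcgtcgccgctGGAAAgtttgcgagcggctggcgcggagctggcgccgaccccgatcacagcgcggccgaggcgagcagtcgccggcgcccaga
Ffar1: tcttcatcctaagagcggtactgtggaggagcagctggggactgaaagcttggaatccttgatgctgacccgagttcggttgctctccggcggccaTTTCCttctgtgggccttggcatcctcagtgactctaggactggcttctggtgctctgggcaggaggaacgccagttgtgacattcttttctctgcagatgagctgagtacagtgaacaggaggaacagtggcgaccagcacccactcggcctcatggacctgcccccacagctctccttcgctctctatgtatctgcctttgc
Glp1r: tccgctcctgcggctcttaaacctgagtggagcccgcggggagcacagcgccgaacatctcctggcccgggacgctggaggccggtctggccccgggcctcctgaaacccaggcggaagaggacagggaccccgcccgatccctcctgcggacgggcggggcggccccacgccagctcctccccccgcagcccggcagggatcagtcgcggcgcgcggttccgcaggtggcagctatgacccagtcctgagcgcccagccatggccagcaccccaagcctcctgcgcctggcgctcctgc
The Sstr3 window held 3 matches of GGAAA and 1 of TGACG, the Gcgr window 2 matches of GGAAA, the Ffar1 window 1, and the Glp1r window 0 of both. GGAAA is common: 61.3% of all 32851 mouse windows of the same length held it on one of the strands, and 20.8% held TGACG. The full element TGACGTCA, which contains TGACG, and the κB site, whose letters include TTTCC, were searched on both strands too and had 0 matches in these 4 windows, against 1.79% and 0.155% of all windows. RefSeq windows were found for 6 of the 8 receptors, not for Gipr and Galr1, and a second Sstr3 window, at chr15:78541357-78541656, held 1 match of GGAAA. The Adra2a window held 1 match of GGAAA and 1 of TGACG, and the Chrm3 window 1 of GGAAA.

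Whole reads of each library were recovered from the deposited group means for 16300 genes, including all 8 receptors, with 14196043 to 26172435 reads per library. Values are given as normalized counts, that is, reads divided by the authors' size factor of the library. Each group held the library of 1 female and 1 male mouse, told apart by Y-linked genes, and values are listed female before male. In the deposited headers WT goes by the name Mut, an identity inferred because the labels hold no other genotype. Nfatc2 held 987 and 899 normalized counts in KO cytokine and 1167 and 842 in KO untreated islets, against 1646 and 1144 in WT cytokine and 1557 and 1270 in WT untreated islets. KO stood below WT in each culture without overlap, and the reads that remain limit this check of the deletion because other islet cells keep the gene and the deleted exons are not given.

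Library composition differed between preparations and between the cultures of a mouse, as summed normalized counts of marker genes show. Markers of exocrine acinar cells summed to 23896 to 125507 in KO libraries and 7361 to 64979 in WT libraries, and stromal markers to 4819 to 13379 against 1606 to 10311. Endothelial markers were lower, at 3339 to 4398 in KO against 5476 to 7285 in WT libraries, and myeloid and lymphoid markers higher, at 1866 to 3483 against 1087 to 1574, and for both lists the genotypes did not overlap. The 7 beta-cell markers with library values summed to 83343 to 90792 in KO and 76045 to 85741 in WT libraries. Schwann and neural markers also did not overlap, at 576 to 678 against 722 to 915. Duct markers summed to 5451 to 5694 in KO against 5506 to 7137 in WT libraries, alpha-cell markers to 4852 to 13138 against 6465 to 12989, and delta and PP markers to 35656 to 59658 against 35289 to 54840. The alpha-cell sum covers 5 of 6 markers and leaves out the glucagon gene Gcg. None of the measured markers with library values was at 0 in a library. Within mice, stromal markers summed to 13379 with cytokines against 10192 untreated in the KO female, 4819 against 5257 in the KO male, 10311 against 1910 in the WT female and 2126 against 1606 in the WT male. The part of these differences in the receptor results was not tested.

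All 8 receptors were detected in every library. Per kilobase of exon the levels spanned 8.93-fold, from Glp1r, the GLP-1 receptor, at 1444 ± 111 normalized reads (SD, n = 8 libraries of 4 mice) to Gcgr, the glucagon receptor, at 162 ± 44.2. Ffar1 averaged 998.5 ± 135 and Sstr3 937 ± 101 per kilobase, and Ffar1 lay above Sstr3 in 6 of 8 libraries, so this pair did not differ beyond its spread. Next came Gipr at 481 ± 81.1, Adra2a at 451 ± 47.5 and Galr1 at 439.5 ± 68.5 per kilobase. Over all 8 libraries these 3 neighbours did not differ beyond their spread: Gipr was above Adra2a in 4 of 8 libraries, and Adra2a above Galr1 in 3 of 8. The order of Adra2a and Galr1 went with genotype, since those 3 were WT libraries. In every KO library Galr1 was higher, at 461 to 514 against 409 to 432 per kilobase for Adra2a. Chrm3 followed at 285 ± 10.1 per kilobase and was above Gcgr in 8 of 8 libraries. Glp1r was above Ffar1, Sstr3 above Gipr and Galr1 above Chrm3 in 8 of 8 libraries as well. Among all genes, ranked by mean normalized count, Glp1r stood at percentile 98.2 and Gcgr at percentile 50.7.

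All 8 are protein-coding genes, and the deposited values are per gene, not per transcript. The levels per kilobase take reads as counted over exons, which the sources used here do not state. On GRCm38 with GENCODE M21, Glp1r (ENSMUSG00000024027) lies on chromosome 17 from 30901817 to 30940791, plus strand, Gipr (ENSMUSG00000030406) on chromosome 7 from 19156061 to 19166127, minus strand, and Gcgr (ENSMUSG00000025127) on chromosome 11 from 120530699 to 120538986, plus strand. Ffar1 (ENSMUSG00000044453) lies on chromosome 7 from 30857390 to 30861564, minus strand, and Chrm3 (ENSMUSG00000046159) on chromosome 13 from 9875486 to 10360847, minus strand. Adra2a (ENSMUSG00000033717) lies on chromosome 19 from 54044151 to 54048982, plus strand, Sstr3 (ENSMUSG00000044933) on chromosome 15 from 78537008 to 78544685, minus strand, and Galr1 (ENSMUSG00000024553) on chromosome 18 from 82392380 to 82406777, minus strand. No exon of these receptors overlapped an exon of another gene, although other genes lie within introns or on the opposite strand of Chrm3, Glp1r and Gcgr.

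**Figure D1:**
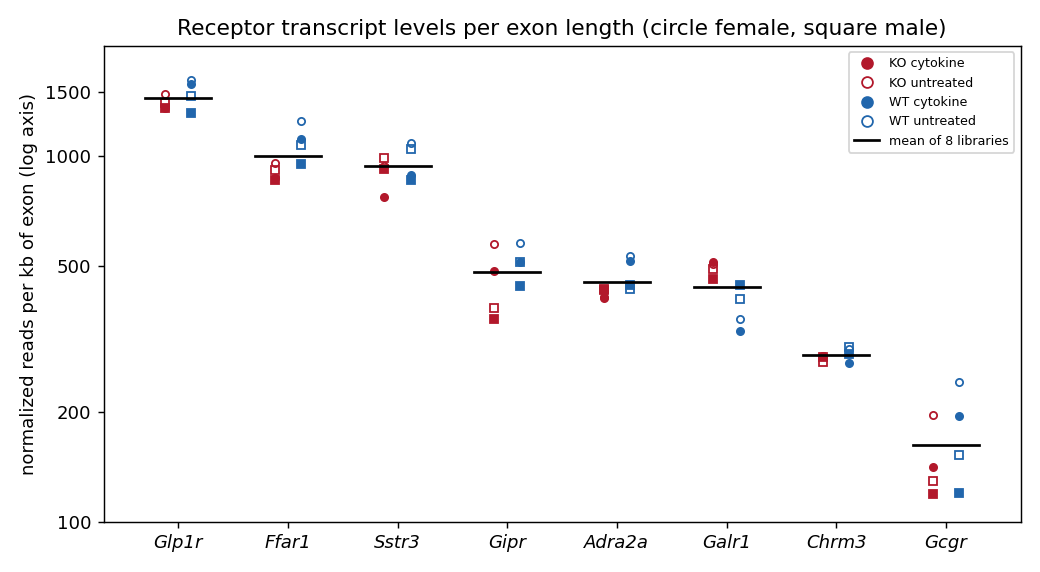
Normalized reads per kilobase of exon (log axis) of the 8 receptors in every library, KO red and left, WT blue and right, filled with cytokines and open untreated, circles female and squares male, with the mean of 8 libraries as a line. Glp1r lies above the rest and Gcgr below, while Gipr, Adra2a and Galr1 share a range.

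The receptors also differed in how much they varied over the 8 libraries. Chrm3 was the steadiest of the 8, with a highest over lowest library ratio of 1.11, and Gcgr varied most, at 2.02. Glp1r varied 1.24-fold, Adra2a 1.3-fold, Sstr3 1.4-fold, Ffar1 1.45-fold, Galr1 1.55-fold and Gipr 1.61-fold. The lowest receptor count of all was 292 reads of Gcgr in 1 library and the highest 10986 of Glp1r. Counting error exceeded the coefficient of variation between the 2 mice in 5 of 32 pairs of receptor and group, 2 of them for Chrm3. The coefficient of variation of Chrm3 between mice was 0.52% to 4% within groups.

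The first comparison asked how the receptors responded to 2 h of cytokines in 11 mM glucose. Sstr3, the somatostatin receptor that beta cells carry on their primary cilia, fell in the cytokine cultures. It fell by 15.2% when both genotypes were fitted together with the mouse as a block (log2 change -0.24, SE 0.04, limma adjusted p = 0.0396 over 16300 genes), and it was lower in 4 of 4 mice. It was the 1 receptor of 8 called, against 0.89% of all genes called in that fit and 0.276% called lower. Over 7 comparisons of the 8 receptors this was also the 1 call at an adjusted p below 0.05. Glp1r, Gipr, Gcgr and Ffar1 were likewise below their untreated partner in 4 of 4 mice without passing the threshold, whereas Adra2a, Chrm3 and Galr1 went both ways. In all, 5 of 8 receptors were lower in every mouse, as were 12.5% of all genes.

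**Figure D2:**
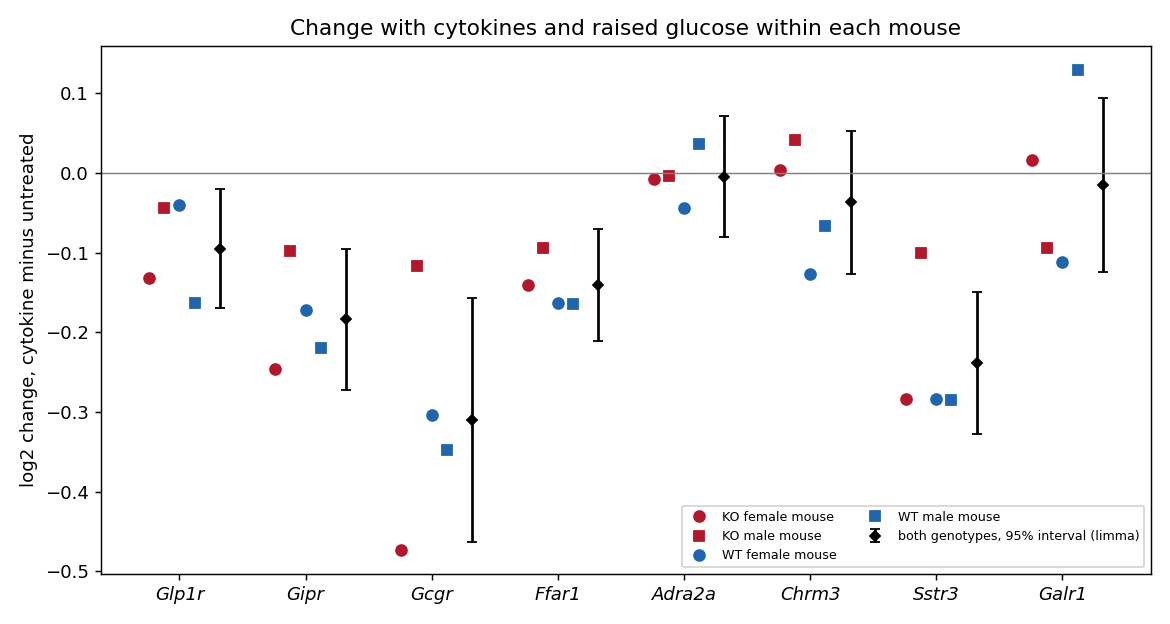
Log2 change of each receptor, cytokine minus untreated, within each mouse (KO red, WT blue, circles female, squares male), with the limma estimate over both genotypes and its 95% interval in black. Glp1r, Gipr, Gcgr, Ffar1 and Sstr3 lie below 0 in all 4 mice, and Sstr3 is the 1 receptor whose adjusted p passes 0.05.

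The values of Sstr3 were 3334 and 3991 normalized counts in KO cytokine islets against 4059 and 4279 in KO untreated islets. In WT islets they were 3839 and 3704 with cytokines against 4675 and 4515 untreated. The means were 3662 ± 464 against 4169 ± 156 in KO and 3772 ± 95.5 against 4595 ± 114 in WT islets (SD, n = 2 each). The cytokine libraries stood below the untreated ones in both genotypes with no overlap, as did 14.6% of genes in KO and 10.9% in WT islets. Within mice, Sstr3 was lower by 0.28 on the log2 scale in the KO female, 0.10 in the KO male, 0.28 in the WT female and 0.29 in the WT male, so the KO male moved least. The authors' deposited tables gave a log2 fold change of -0.19 (SE 0.12, FDR 1) in KO and -0.29 (SE 0.12, unadjusted p = 0.0152, FDR 1) in WT islets. The limma call ended without the KO female (adjusted p = 0.18), without the WT male (adjusted p = 0.138) and without the mouse block (adjusted p = 1), and was 0.0376 without the KO male and 0.0476 without the WT female.

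Beside this, Ppy, the pancreatic polypeptide gene, was lower in the cytokine culture of the same 4 mice, at 19795 against 31760 normalized counts in the KO female, 14842 against 29544 in the KO male, 13090 against 13514 in the WT female and 17074 against 21338 in the WT male. It fell in KO islets in the authors' deposited table (log2 fold change -0.85, SE 0.16, FDR 0.000475). The other 3 delta and PP markers, Sst, Hhex and Rbp4, summed to 26602 and 20814 in KO cytokine against 27898 and 18577 in KO untreated islets. In WT islets they summed to 39046 and 18215 with cytokines against 41326 and 20594 untreated. The list of 4 had a median log2 change of -0.004 over both genotypes, and 0 of the 4 were called by limma in that fit. Sst, the gene of the somatostatin ligand, did not follow in every mouse, with 23960 and 18589 normalized counts in KO cytokine islets against 25045 and 16600 in KO untreated islets. In WT islets Sst held 35801 and 16303 normalized counts with cytokines, against 38200 and 18779 untreated. Summed beta-cell markers were 86330 and 84265 against 90792 and 83343 in KO islets and 76045 and 81828 against 85741 and 82303 in WT islets, lower in 3 of 4 mice. Stromal markers were higher with cytokines in 3 of 4 mice, most in the WT female, as given above. Summed acinar markers were lower with cytokines in the KO male, the WT female and the WT male and higher in the KO female, as given below. Whether these shifts bear on Sstr3 was not tested.

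The Gs-coupled receptors had smaller or noisier differences. Glp1r, the target of GLP-1 drugs, held 7863 and 7881 normalized counts in KO cytokine against 8613 and 8123 in KO untreated islets, and 9139 and 7594 in WT cytokine against 9401 and 8501 in WT untreated islets. The groups separated in KO and overlapped in WT islets. Over both genotypes the difference of Glp1r with cytokines was -6.35% (95% interval -11.1% to -1.36%, limma adjusted p = 0.206). Gipr, which binds the incretin GIP, held 1686 and 1251 normalized counts in KO cytokine against 1999 and 1339 in KO untreated islets, and 1788 and 1537 in WT cytokine against 2014 and 1790 in WT untreated islets. Its KO groups overlapped and its WT groups were only just apart. Over both genotypes the difference was -12.0% (95% interval -17.2% to -6.46%, limma adjusted p = 0.0694).

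Gcgr, through which glucagon from alpha cells acts on beta cells, held 370 and 312 normalized counts in KO cytokine against 515 and 338 in KO untreated islets. WT islets held 510 and 314 with cytokines against 630 and 400 untreated. The groups overlapped in both genotypes, since female libraries were higher than male ones in each group. Within mice the difference ran from -0.47 on the log2 scale in the KO female to -0.12 in the KO male, and over both genotypes it was -19.3% (95% interval -27.5% to -10.3%, limma adjusted p = 0.0743). This was the largest estimate of the 8, on the fewest reads. Summed alpha-cell markers, by contrast, were higher with cytokines in the KO female (13138 against 12626), KO male (6331 against 4852), WT female (12989 against 12152) and WT male (6710 against 6465). That sum leaves out the glucagon gene Gcg, whose library values could not be recovered.

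Ffar1, the fatty-acid receptor, held 3628 and 3587 normalized counts in KO cytokine against 4000 and 3829 in KO untreated islets, and 4654 and 3979 in WT cytokine against 5212 and 4462 in WT untreated islets. The 4 mice were close to each other, at -0.14, -0.09, -0.16 and -0.17 on the log2 scale. Over both genotypes the difference of Ffar1 was -9.3% (95% interval -13.6% to -4.8%, limma adjusted p = 0.0756). Chrm3, the other Gq-coupled receptor of the 8, held 1775 and 1762 normalized counts in KO cytokine against 1771 and 1712 in KO untreated islets. WT islets held 1697 and 1796 with cytokines against 1853 and 1881 untreated. Chrm3 was thus level or slightly higher in KO and lower in WT islets, and over both genotypes the difference was -2.53% (95% interval -8.41% to 3.73%, limma adjusted p = 0.697).

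The inhibitory receptors Adra2a and Galr1 had estimates near 0. Adra2a, which mediates the block of insulin release by adrenaline, held 1978 and 2083 normalized counts in KO cytokine against 1988 and 2088 in KO untreated islets, and 2502 and 2142 in WT cytokine against 2580 and 2089 in WT untreated islets. The difference over both genotypes was -0.334% (95% interval -5.44% to 5.05%, limma adjusted p = 0.963). Galr1, the galanin receptor, differed by -1.05% (95% interval -8.24% to 6.71%, limma adjusted p = 0.917). Its 4 mice split, at 0.02 and -0.09 on the log2 scale in the KO female and male and -0.11 and 0.13 in the WT female and male.

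Of the 8 receptors 0 passed an FDR of 0.05 in either genotype in the authors' deposited tables, with FDR values of 1 for each, against 0.0429% of all genes in KO (7 genes) and 0.0122% in WT islets (2 genes). A limma fit blocked by mouse called 20 genes (0.123%) in KO and 25 (0.153%) in WT islets, and again 0 of the 8 receptors. Its standard errors in KO islets were 0.05 for Glp1r and 0.10 for Gcgr, where the authors' deposited table gave 0.13 and 0.37. In the authors' cytokine comparisons 1.02% of all genes in KO and 0.918% in WT islets had an unadjusted p below 0.05. The high FDR values therefore do not show that a receptor was unchanged. The log2 fold changes in the authors' deposited tables ran from -0.33 (Gcgr) to 0.02 (Chrm3) in KO and from -0.32 (Gcgr) to 0.01 (Galr1) in WT islets, 7 of 8 negative in each. The median over the 8 was -0.10 in KO and -0.13 in WT islets, beside 0.0006 and 0.0028 over all genes.

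**Figure D3:**
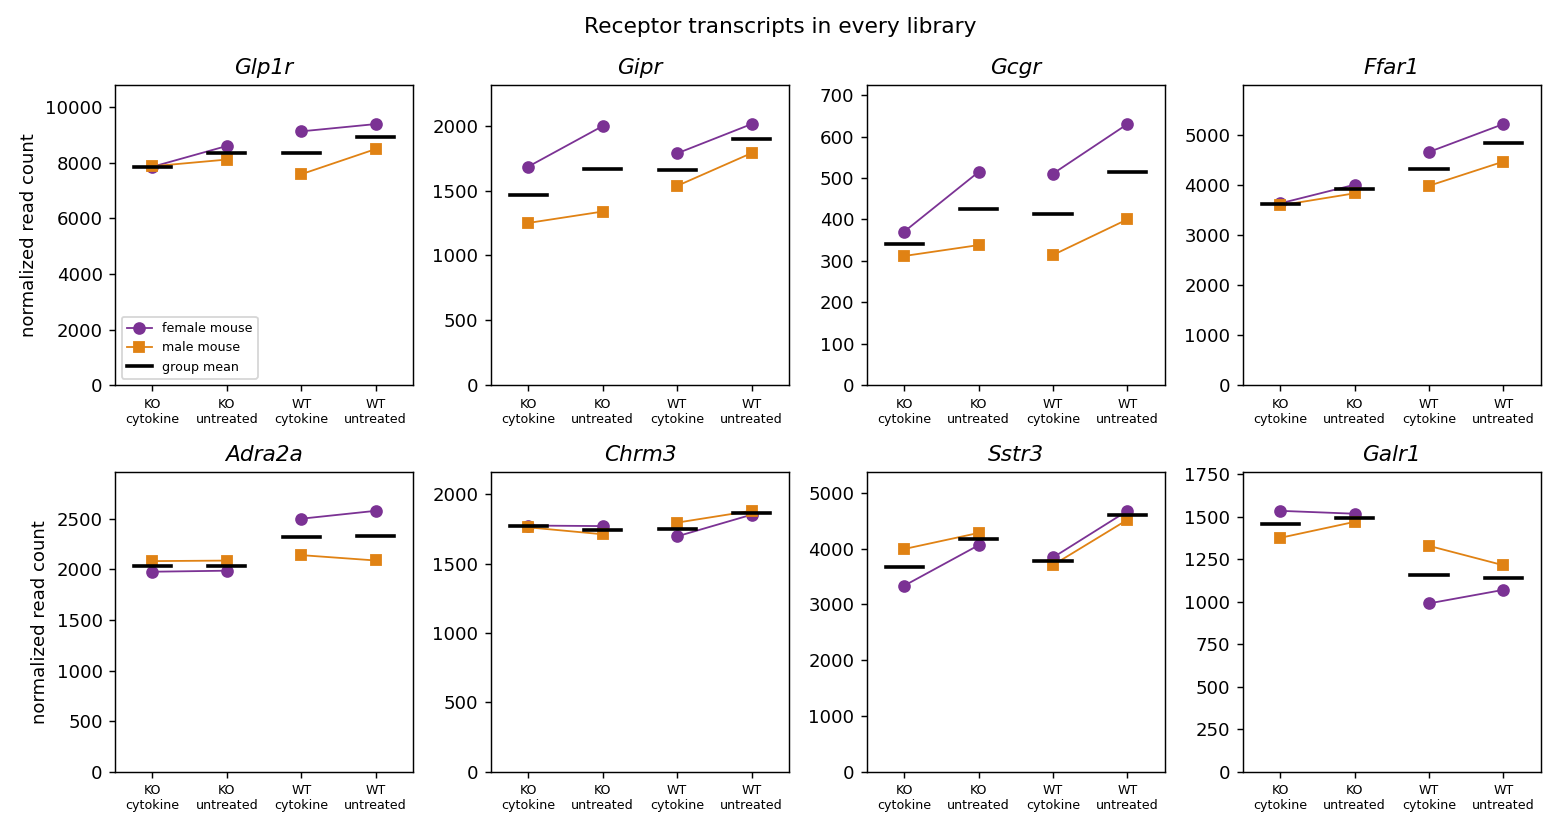
Normalized read count of each receptor in every library, with the cultures of a mouse joined by a line (purple circles female, orange squares male) and group means as black bars, in the order KO cytokine, KO untreated, WT cytokine, WT untreated. Galr1 sits higher in all 4 KO libraries than in all 4 WT libraries, and Gipr and Gcgr are split mainly by mouse.

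The second comparison asked whether the loss of NFATc2 altered the receptors, untreated and with cytokines. Galr1 was the receptor with the clearest separation: it was 28.8% higher in KO islets when the cultures of each mouse were averaged, with a 95% interval of 1.54% to 63.4%, but it did not pass the test (limma adjusted p = 0.814). Ffar1 differed by -17.5% (95% interval -32.5% to 0.743%, limma adjusted p = 0.863), also short of the threshold. None of the 8 receptors was called, as in that fit 0% of all genes were, while 951 genes (5.83%) had an unadjusted p below 0.05, Galr1 among them. Of the 8 receptors 0 were called in the authors' deposited tables, against 0.41% of all genes untreated (67 genes) and 0.998% with cytokines (163 genes). In the authors' untreated comparison 4.89% of all genes had an unadjusted p below 0.05, Galr1 and Ffar1 among them.

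Galr1 held 1535 and 1376 normalized counts in KO cytokine islets against 990 and 1329 in WT cytokine islets. Untreated, it held 1518 and 1470 in KO against 1070 and 1215 in WT islets. The means were 1456 ± 112 against 1160 ± 239 with cytokines and 1494 ± 33.9 against 1143 ± 102 untreated (SD, n = 2 each). All 4 KO libraries stood above all 4 WT libraries, as for 5.36% of genes, although the male cytokine pair differed by only 0.05 on the log2 scale, beside 0.63 in the female pair. The authors' deposited tables gave 0.39 (SE 0.18, unadjusted p = 0.0301, FDR 0.837) untreated and 0.33 (SE 0.18, FDR 0.958) with cytokines. Leaving out each mouse in turn gave 0.30 to 0.48 untreated and 0.13 to 0.55 with cytokines, with the lowest value in both cases without the WT female. Endothelial, myeloid and lymphoid markers separated the same libraries without overlap, as given above, and their part in the Galr1 values was not tested.

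Ffar1 was lower in KO than in WT islets of the same culture without overlap, in the values given above. The authors' deposited tables gave -0.31 (SE 0.14, unadjusted p = 0.0235, FDR 0.77) untreated and -0.26 (SE 0.14, FDR 0.887) with cytokines. Female pairs differed more, at -0.38 untreated and -0.36 with cytokines, than male pairs, at -0.22 and -0.15. Adra2a too was below WT in every KO library, as for 4.76% of genes, but the gap was carried by the WT female: the female pairs differed by -0.34 with cytokines and -0.38 untreated, and the male pairs by -0.04 and -0.001. Without the WT female the cytokine difference of Adra2a was -0.08 and the untreated one -0.04.

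The other receptors did not separate the genotypes in both cultures. Untreated, 4 receptors were lower in KO than in WT libraries without overlap (Ffar1, Adra2a, Chrm3 and Sstr3), as were 18.3% of all genes, and with cytokines 2 were (Ffar1 and Adra2a), as were 14.2%. For Sstr3 the authors' deposited tables gave -0.14 (SE 0.13) untreated and -0.04 (SE 0.13) with cytokines, and for Chrm3 -0.10 (SE 0.11) and 0.02 (SE 0.11). Glp1r had log2 fold changes of -0.10 and -0.09 (SE 0.13 in both), Gipr -0.19 and -0.18 (SE 0.23) and Gcgr -0.27 in both (SE 0.33) in the authors' deposited tables. The wide intervals of Gcgr, from -47.2% to 29.8% untreated, leave room for differences larger than any seen here. The mouse-averaged genotype value changed sign without the WT female for Glp1r (0.01) and Gcgr (0.09) and without the KO male for Gipr (0.05).

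**Figure D4:**
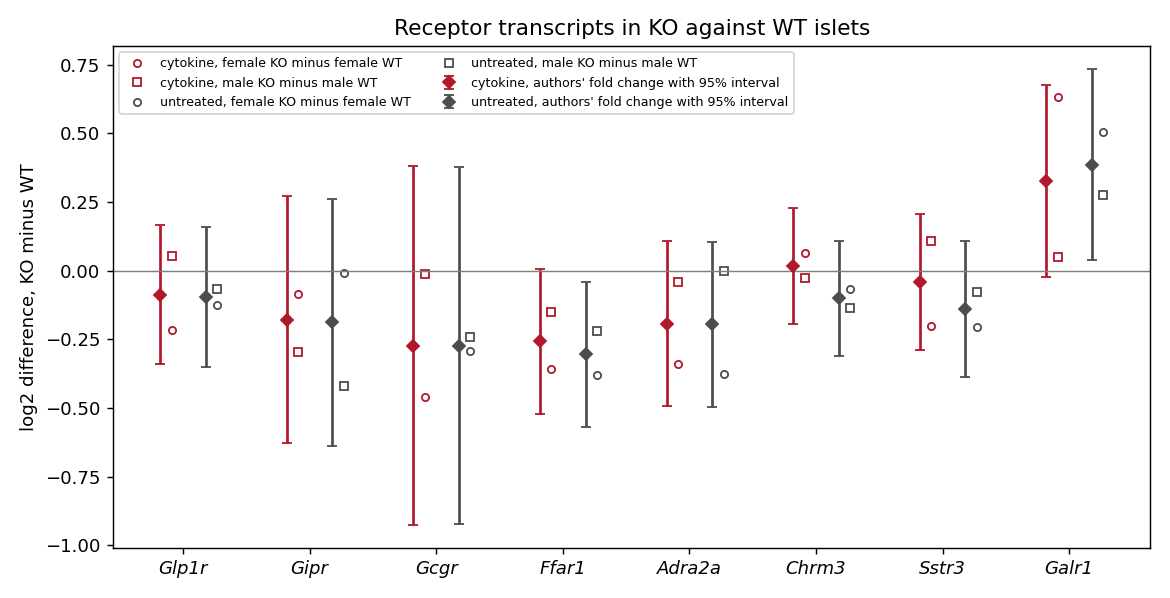
Log2 difference, KO minus WT, of each receptor with cytokines (red) and untreated (grey): diamonds are the authors' fold changes with 95% intervals, open circles the female and open squares the male pair of mice. Galr1 is the 1 receptor above 0 in both cultures and both sexes. Ffar1 is below 0 in each, as are Gipr, Gcgr and Adra2a. The intervals of these receptors reach close to 0 or past it.

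These 2 genotype comparisons and the 2 cytokine comparisons share libraries, so their values are not independent of each other. The third comparison asked whether the cytokine response itself differed between KO and WT islets. The difference of the fold changes, KO response minus WT response, was called for 0 of 8 receptors and for 0% of all 16333 genes, with 36 genes at an unadjusted p below 0.05, and limma with the mouse as a block also called 0 genes. For Sstr3 the KO response differed from the WT response by 6.82% (95% interval -14.7% to 33.8%) and for Chrm3 by 8.6% (95% interval -12.8% to 35.2%). For Glp1r the interval ran from -22% to 29.9%, for Ffar1 from -20.6% to 34.1%, for Adra2a from -22.1% to 28.4% and for Galr1 from -28.6% to 29.6%. It ran from -36.7% to 60.6% for Gipr and from -51.2% to 103% for Gcgr. These intervals leave room for genotype differences as large as the responses themselves. They use the authors' standard errors, which for each receptor gave a larger error than limma with the mouse as a block. That limma fit gave log2 differences of 0.09 for Sstr3 (SE 0.08), 0.12 for Chrm3 (SE 0.08) and 0.05 for Ffar1 (SE 0.07). For Gcgr it gave 0.03 (SE 0.14).

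Over the 8 libraries, the receptors varied together with different genes. These correlations describe 8 points that share mice, cultures and preparations, over 12341 genes with a mean of at least 100 normalized counts. Among the receptors, Glp1r and Gcgr were the most alike (Pearson r 0.937), Gipr was closest to Gcgr (0.865), Ffar1 to Glp1r (0.871) and Adra2a to Ffar1 (0.85). Chrm3 had no close partner, its highest being Sstr3 at 0.446. Galr1 ran against the other 7, from -0.128 with Chrm3 to -0.92 with Adra2a.

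Beyond the receptors, the genes most like Sstr3 were Preb (0.986), which acts in the exit of secretory proteins from the endoplasmic reticulum, and Bhlha15 (0.983), a transcription factor of secretory cells known from acinar tissue. Bhlha15 was itself called lower with cytokines over both genotypes (log2 change -0.38, SE 0.06, limma adjusted p = 0.0219), at 1814 and 2224 normalized counts in KO cytokine against 2262 and 2527 in KO untreated islets. It held 2040 and 1984 in WT cytokine against 2941 and 2751 in WT untreated islets. The summed acinar markers were higher in the cytokine culture of the KO female (125507 against 74543). They were lower in the KO male (23896 against 33714), the WT female (30158 against 64979) and the WT male (7361 against 10236). The acinar list, of which Bhlha15 is a member, had a median log2 change of -0.37 over both genotypes. The part of acinar RNA in the values of Sstr3 and Bhlha15 was not tested. Glp1r was most like Syne4 (0.988) and Zfp628 (0.985), and Gipr most like Klf8 and Slc6a19 (both 0.973). For Gcgr the closest genes were 5430416N02Rik (0.987) and Gal3st1 (0.985), for Ffar1 the co-chaperone gene Stip1 (0.987) and Fam187b (0.986), and for Adra2a Mettl1 (0.986) and Ocel1 (0.983). For Chrm3 they were Gtf2f2 (0.968) and 1190007I07Rik (0.963), and for Galr1 Stxbp6 (0.984) and Gm20275 (0.982).

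The pathway around the receptors was followed with 9 lists of 161 genes, of which 119 were measured, Crem and Pde10a in 2 lists each. Of these 119, 0 were called in the cytokine comparison of either genotype in the authors' deposited tables. In the cytokine comparison over both genotypes limma called 3 of the 118 that could be tested, all higher (2.54%, beside 0.89% of all genes), and their median log2 change was 0.02. The genes called were Pde1c, a phosphodiesterase that breaks down cAMP under calcium and calmodulin, and Sik1 and Nr4a3, a kinase and a nuclear receptor induced by cAMP signalling. Pde1c held 1993 and 2079 normalized counts in KO cytokine against 1634 and 1621 in KO untreated islets, and 2545 and 1937 in WT cytokine against 2104 and 1594 in WT untreated islets. It was higher in all 4 mice, as were 12.4% of all genes, with no overlap in KO and an overlap between mice in WT islets, and rose by 0.30 on the log2 scale (SE 0.04, limma adjusted p = 0.00863).

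Sik1 held 679 and 554 normalized counts in KO cytokine against 529.7 and 406 in KO untreated islets, and 858 and 512 in WT cytokine against 558 and 382 in WT untreated islets, a rise of 0.46 on the log2 scale (SE 0.06, limma adjusted p = 0.0107). Nr4a3 was scarce, at 91.3 and 85.8 normalized counts in KO cytokine against 50.7 and 31.1 in KO untreated islets. It held 175 and 51.7 in WT cytokine against 59.8 and 31 in WT untreated islets, a rise of 1.13 (SE 0.17, limma adjusted p = 0.0275). The log2 estimates stayed positive when each mouse was left out, at 0.280 to 0.309 for Pde1c, 0.409 to 0.497 for Sik1 and 0.998 to 1.268 for Nr4a3, but with fewer libraries some adjusted p-values rose above 0.05. Pde1c had an adjusted p of 0.0727 without the KO female and 0.0552 without the KO male, Sik1 0.0512 without the KO male and 0.0582 without the WT male. Nr4a3 had 0.0885, 0.0933 and 0.0647 without the KO female, the KO male and the WT male. Without the mouse block all 3 were at 1. Sik1 and Nr4a3 were highest in the WT cytokine female library, where stromal markers stood at 10311 against 1910 in the untreated culture of that mouse. The part of that shift in the calls was not tested.

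Medians of the cytokine change over both genotypes are given for 8 of the 9 lists. The Gs and cAMP arm (31 of 32 genes measured, 1 higher) had a median of 0.04, the Gi/o arm (17 of 18, 0 called) 0.01, the Gq arm (16 of 16, 0 called) -0.01 and the desensitisation genes (14 of 16, 0 called) 0.04. Genes responsive to cAMP (10 of 10, 2 higher) had a median of 0.13, which includes Sik1 and Nr4a3. Other class B and fatty-acid receptors (7 of 11) had a median of -0.04, peptide and purine receptors (18 of 29) 0.10, and ligand genes and transmitter enzymes (5 tested of 11) -0.05, each with 0 called. The 8 receptors themselves had a median of -0.12, with all 8 estimates negative, beside 0.0009 over all genes. Nearest to the threshold were Rgs17, a regulator that shortens Gi and Gq signals (0.21, SE 0.04, limma adjusted p = 0.0602), and Plcb2, a phospholipase C (1.09, SE 0.24, limma adjusted p = 0.0739).

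**Figure D5:**
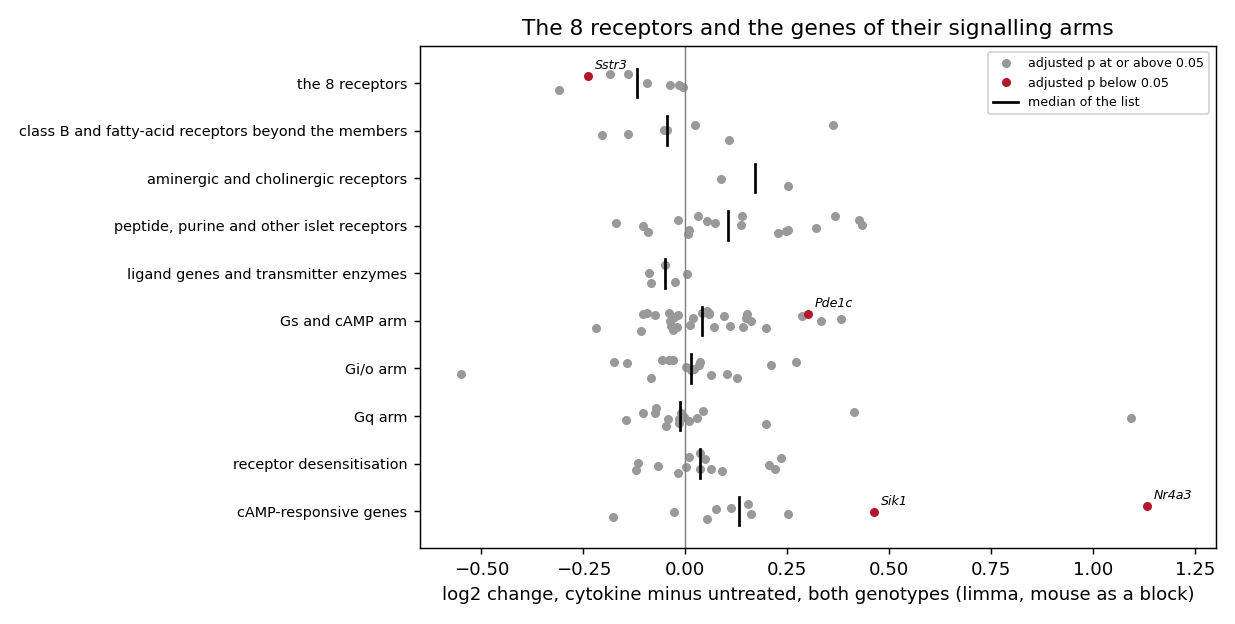
Log2 change, cytokine minus untreated over both genotypes, of each receptor and each measured gene of the 9 pathway lists (1 point per gene, red where the adjusted p of limma is below 0.05), with the median of each list as a black bar. The 8 receptors lie at or below 0, and the called pathway genes Pde1c, Sik1 and Nr4a3 lie above 0.

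Between genotypes 1 of the 119 pathway genes was called in the authors' deposited tables, with cytokines (0.84%, beside 0.998% of all genes). The gene was Rgs4, a GTPase-activating protein that damps Gi and Gq signalling. It held 3777 and 3698 normalized counts in KO cytokine islets against 6170 and 5385 in WT cytokine islets, and 3219 and 3768 in KO untreated against 4289 and 4644 in WT untreated islets. All KO libraries lay below all WT libraries, as for 4.76% of genes, and in the cytokine cultures the authors' deposited table gave a log2 fold change, KO over WT, of -0.63 (SE 0.13, FDR 0.00109). Untreated, the authors' deposited table gave -0.35 (SE 0.13, FDR 0.45). On recovered reads without a block limma gave an adjusted p of 0.503 for the cytokine comparison, and 0.151 to 1 when each mouse was left out, with estimates of -0.723 to -0.527. With sex-matched mice as a block the limma adjusted p was 0.00217, in a fit that leans on the variance trend over all genes.

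No gene of the lists was called untreated in the authors' deposited table or in the mouse-averaged fit (lowest limma adjusted p 0.451). For the same 8 lists the mouse-averaged medians, KO over WT, were -0.01 for the Gs and cAMP arm, 0.03 for the Gi/o arm, -0.08 for the Gq arm, -0.05 for desensitisation genes and 0.04 for genes responsive to cAMP. They were -0.05 for the other class B and fatty-acid receptors, 0.03 for peptide and purine receptors and -0.09 for ligand genes, beside -0.14 for the 8 receptors and -0.0014 over all genes. Among the related receptors outside the 8, the mouse-averaged fit gave 1.03 for Sstr2, another somatostatin receptor (SE 0.32, limma adjusted p = 0.687), and -1.07 for Vipr1, a receptor for vasoactive intestinal peptide (SE 0.35, limma adjusted p = 0.732).

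For the EP3 receptor gene Ptger3, which lies outside the set but is also Gi-coupled, KO cytokine islets held 296 and 335 normalized counts against 76.0 and 70.8 in WT cytokine islets. Untreated, KO islets held 315 and 339 against 69.1 and 74.5 in WT islets, a wider gap than for any of the 8 receptors. Of the islet ligands, glucagon gene Gcg had deposited group means of 221622 in KO cytokine and 192470 in KO untreated islets, against 216338 in WT cytokine and 199822 in WT untreated islets, and its library values could not be recovered.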

How the data were processed

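The deposited files are 4 comparison tables made by the authors, cytokine over untreated in each genotype and KO over WT in each culture. Per the submitters' processing notes HISAT2, HTSeq, DESeq2 and GRCm38 were used, with versions and roles not given in the sources used here. The deposited signal columns are group means of normalized counts, the deposited log2 column is the authors' fold change, and the deposited score is its test statistic. Standard errors were taken as fold change over score. The deposited p-values equal the two-sided normal probability of the score, and the FDR is adjusted over 16333 genes, all with a mean of at least 23.2. Calls need an FDR or adjusted p below 0.05.

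Each group mean is a sum of 2 whole read numbers times fixed steps, which gave back the reads for 16300 genes (99.8%). For the 16098 settled within every group, the deposited overall mean was met to a relative 1e-09. In the 33 others, Gcg, Ins1, Ins2 and Iapp among them, group means alone were used. Depth was 14196043 to 26172435 reads per library, and counting error exceeded the variation between mice in 5 of 32 pairs of receptor and group. Limma 3.58.1 in R 4.3.3 was run on log2(normalized count + 1) with a trended variance: cytokine over untreated with the mouse as a block, and KO over WT on mouse means. Log2 changes on that scale understate changes of scarce genes. The series text states that both cultures came from each mouse, and the 2 libraries of a mouse deviated together (r 0.811 in KO, 0.829 in WT, over 12341 genes). With 2 mice a genotype, p-values measure the spread of few animals, and those of limma also lean on the variance trend over all genes. Recovery and fits were tested on simulated data. In these the effect of a mouse was the same in both its cultures, so shifts in composition between cultures were not covered.

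The receptors, pathway lists and markers were chosen with earlier results of these data known. Named are all 8 receptors, called genes of the lists, else those with the smallest p, and for likeness the 2 genes with the highest r. One related receptor gene, and the medians of its list, are not reported here. Gene positions and exon lengths come from GENCODE M21, promoter windows from RefSeq. Strandedness of the libraries is unknown here, and no receptor exon overlaps another gene's exon.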

Additional observations from a re-analysis of the deposited data

How the results depend on the processing

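Counting error exceeded the variation between mice in 5 of 32 pairs of receptor and group, so depth also limits small differences such as those of Chrm3. With 2 mice per genotype the fits cannot separate a genotype difference from a difference between preparations. Of 272 receptor values under other settings than leaving out a mouse, 264 kept direction and side of the threshold, and of 224 with a mouse left out 191 did. The 272 include a looser FDR of 0.1 and a mean of at least 50 for the authors' 4 comparisons. These reuse the deposited fold changes, so their direction could not change. Likewise, for the cytokine response of 1 genotype, leaving out a mouse of the other genotype could not change the estimate of the blocked fit. Fits without 1 mouse of a genotype leave its groups with 1 library, which is assumed to vary like the others. Leaving out a mouse reversed 28 values, within the ranges given below. The other 5 reversals were of values whose size in the reported fit was at most 0.017: libraries scaled to total reads with the replicate block gave 0.012 for Adra2a in WT with cytokines and -0.005 for Chrm3 in KO over WT with cytokines, scaling alone gave 0.002 for Adra2a over both genotypes, and limma's interaction of Gcgr was 0.031 with and without the replicate block. The cause was not tested.

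Sex-matched mice of the 2 genotypes share only their sex (r 0.617 untreated and 0.576 with cytokines). With that replicate block, 1 receptor was called in KO over WT untreated, also with pseudocount 5. It was Galr1 (0.39, limma adjusted p 0.0487), and scaling to total reads ended the call, leaving 0. Over all genes limma with this block called 698 (4.28% of genes) untreated, 948 with cytokines and 1184 for mouse means. Limma without it called 0 in each, with 1126, 847 and 951 genes at an unadjusted p below 0.05, while 67 untreated and 163 with cytokines were called in the authors' deposited tables. With the block Galr1 had an adjusted p of 0.0865 for mouse means. A fit of 1 culture with sex-matched mice holds 1 library per sex and genotype. Its p-values therefore lean on the variance trend over all genes more than on the spread of a gene between mice. With cytokines the SE was 0.146 for Ffar1 and 0.157 for Galr1, although the Galr1 pairs differed by 0.63 (female) and 0.05 (male). For the cytokine responses the replicate block gave 20 genes in KO and 25 in WT, where the authors' tables gave 7 and 2. Without the block the response over both genotypes had 0 receptor calls and 0 genes, against 145. With a mean of at least 50, 103 genes were called in KO over WT with cytokines.

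Leaving out a mouse, the log2 cytokine change of Sstr3 ran from -0.284 to -0.101 in KO and from -0.285 to -0.284 in WT islets. Over both genotypes it ran from -0.285 to -0.223. How many genes such fits call is not given, because they leave groups with 1 library. Ranges that crossed 0 were, for the cytokine response, -0.095 to 0.016 for Galr1 in KO, -0.044 to 0.036 for Adra2a and -0.112 to 0.129 for Galr1 in WT, and -0.018 to 0.008 for Adra2a and -0.063 to 0.017 for Galr1 over both. For KO over WT untreated they were -0.504 to 0.074 for Gipr and -0.594 to 0.060 for Gcgr. With cytokines they were -0.215 to 0.052 for Glp1r, -0.406 to 0.025 for Gipr, -0.586 to 0.113 for Gcgr, -0.023 to 0.059 for Chrm3 and -0.178 to 0.082 for Sstr3. For the interaction they were -0.047 to 0.075 for Glp1r, -0.050 to 0.098 for Gipr, -0.147 to 0.209 for Gcgr, -0.041 to 0.039 for Adra2a and -0.168 to 0.072 for Galr1. For mouse means they were -0.192 to 0.014 for Glp1r, -0.455 to 0.049 for Gipr and -0.590 to 0.086 for Gcgr.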

Other observations

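Receptor levels also differed between the female and the male mouse of each genotype. Gipr, Gcgr and Ffar1 were higher in the female than in the male library of all 4 groups, as were 19.8% of all genes, and 0 of the 8 receptors were lower in all 4. For Gcgr the female and male values were 370 and 312 normalized counts in KO cytokine and 515 and 338 in KO untreated, and 510 and 314 in WT cytokine and 630 and 400 in WT untreated islets. Summed alpha-cell markers, without Gcg, ran the same way, at 13138 and 6331, 12626 and 4852, 12989 and 6710, and 12152 and 6465 in the same groups. With 1 mouse per sex and genotype, sex, mouse and preparation cannot be told apart, and no test was made.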
